A study of Homo sapiens with 12 samples.

Results

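The keratin gene clusters are the pair of genomic blocks that hold nearly all keratin genes, the type II block at chr12:52560000-53350000 and the type I block at chr17:38800000-39790000 on build hg19. Every region of the deposited histone mark tables that lay wholly inside these blocks was taken, whatever its value. This gave 34 of 36400 H3K4me3 regions (19 in the type II block and 15 in the type I block), 137 of 50000 H3K27me3 intervals (54 and 83) and 47 of 157878 H3K79me3 regions (34 and 13). A further 4 H3K27me3 intervals and 1 H3K79me3 region crossed a block edge and were not counted. The marks were mapped by ChIP-seq in 4 related human colorectal cancer cell lines, with 1 library per line and mark, 12 in all. DLD1 is the parental line and is labelled epithelial. SA, obtained from colonies in soft agar, and SPH, obtained from colonospheres, carry the label mesenchymal. METS, obtained from a xenograft's lung metastasis, carries the label epithelial. Culture of all 4 lines was in McCoy's 5A with fetal bovine serum, penicillin and streptomycin, and no treatment or genetic change is named in the labels. The labels do not say whether a derivative is 1 clone or a pool, and the titles of the derivatives' libraries also use the word parental. The question asked of the clusters was how they were marked in the epithelial parent and how far the mesenchymal lines differed from the epithelial ones.

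Keratins are the intermediate filament proteins of epithelial cells, and each filament needs a type I partner and a type II partner. Simple epithelia such as the colon lining use KRT8 with KRT18, KRT19 and KRT20, while the stratified, wound, inner root sheath and hair keratins next to them in the same blocks belong to skin, mucosa and the hair follicle. Loss of simple keratins is a textbook feature of epithelial to mesenchymal transition. H3K4me3 is found at active promoters, H3K27me3 is the mark that Polycomb complexes place on silenced genes, and H3K79me3 is placed by DOT1L over the first part of transcribed genes.

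KRT10-AS1 and KRT10 share a locus with strong H3K4me3 at 1 end only, and KRT20 is the intestinal keratin without an H3K4me3 region. KRT26 was the 1 of 137 intervals (0.73%) past 2-fold for H3K27me3 with 0.5 CPM added, lower in SPH than in DLD1. Over all intervals that share was 1.39%. The upstream sequences shown here belong to these 4 genes of the type I results below. Each is the 250 bases before the RefSeq start, 5′ to 3′ on the strand of the gene, in RefSeq's GRCh38.p14 (chr17:40818895-40819144 on the plus strand for KRT10-AS1, and chr17:40822615-40822864, chr17:40885243-40885492 and chr17:40772202-40772451 on the minus strand for the others). Capitals mark matches on either strand. The letters searched were TATAAA for the TATA box, CCAAT for the box of that name and GGGCGG for the GC box.
KRT10-AS1: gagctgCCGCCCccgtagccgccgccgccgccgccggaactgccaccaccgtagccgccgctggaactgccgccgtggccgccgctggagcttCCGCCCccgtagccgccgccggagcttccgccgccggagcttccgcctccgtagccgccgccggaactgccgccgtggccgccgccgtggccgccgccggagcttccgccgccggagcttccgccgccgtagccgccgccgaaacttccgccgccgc
KRT10: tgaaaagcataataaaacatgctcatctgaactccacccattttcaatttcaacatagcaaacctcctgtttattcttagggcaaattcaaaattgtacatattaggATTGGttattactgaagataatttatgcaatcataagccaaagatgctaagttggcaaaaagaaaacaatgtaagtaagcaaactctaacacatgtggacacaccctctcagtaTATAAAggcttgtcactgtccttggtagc
KRT20: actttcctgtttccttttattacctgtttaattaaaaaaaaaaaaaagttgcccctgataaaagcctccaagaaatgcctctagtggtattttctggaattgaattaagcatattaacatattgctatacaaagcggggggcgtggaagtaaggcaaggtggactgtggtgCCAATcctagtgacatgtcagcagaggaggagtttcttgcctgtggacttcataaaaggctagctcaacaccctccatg
KRT26: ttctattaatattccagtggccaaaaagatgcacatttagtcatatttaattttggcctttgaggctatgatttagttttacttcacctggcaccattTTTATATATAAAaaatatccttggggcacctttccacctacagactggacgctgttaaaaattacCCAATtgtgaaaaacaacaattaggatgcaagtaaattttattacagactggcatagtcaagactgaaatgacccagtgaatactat
The KRT10-AS1 sequence lies inside the KRT10 gene on the other strand and holds 48 CpG and 2 GC box matches. KRT10 itself has 0 CpG, 1 TATA box match and 1 CCAAT match, KRT20 has 2 CpG and 1 CCAAT match, and KRT26 has 1 CpG, 1 CCAAT match and 2 adjacent TATA box matches on opposite strands. Of the 49 keratins named below, 32 had an entry in RefSeq's promoter table. KRT80, KRT18 and KRT19 are among those without one, and the entry of KRT8 starts inside the gene body. The 32 keratins with an entry, which leave out KRT80, KRT18 and KRT19, had a median of 2 CpG in 250 bases (0 to 7), against 10 over all 27305 promoters. TATAAA was present in 19 of the 32 (59.4%) against 11.2% of all promoters, CCAAT in 15 (46.9%) against 33.1%, and GGGCGG in 4 (12.5%) against 42.2%. These matches describe letters, not bound sites.

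Library totals ran from 6722508 to 7753937 counts for H3K4me3, from 15605814 to 20410151 for H3K27me3 and from 6165169 to 7521451 for H3K79me3. The H3K27me3 table was held in part and covers chromosomes 1 to 19. Levels are given in CPM, the usual scaling of counts to library size. Folds compare CPM between lines, and the brackets beside them hold exact Clopper-Pearson intervals at 95%, for counting error alone. With trimmed mean (TMM) factors in place of totals, log2 ratios to DLD1 would be 0.14 higher in SA and 0.12 higher in SPH for H3K27me3, and 0.11 higher in SPH for H3K79me3. The tables carry no gene names. Names were given to H3K27me3 intervals from their lengths and order along the chromosome against RefSeq genes, which matched 98 of 137 intervals and 49 of 54 listed keratins. KRT86, KRT73, KRT36, KRT15 and KRT16 were not matched. Near-identical copies (KRT6A, KRT6B and KRT6C, KRT33A and KRT33B, KRT81 with its neighbours, and the keratin-associated protein genes) can share reads, so their single values are uncertain.

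Marks of active chromatin covered few of the keratin genes. Of the 49 named keratins, 6 had an H3K4me3 region inside the gene body (KRT80, KRT7, KRT8, KRT18, KRT19 and KRT10), 5 had an H3K79me3 region (the same genes without KRT7), and 43 had neither. By class, 5 of 7 simple epithelial keratins carried H3K4me3, against 1 of 19 basal, stratified and wound keratins (KRT10), 0 of 8 inner root sheath keratins and 0 of 15 hair keratins. With a mean of 10 CPM or more required, 4 of the 7 simple keratins did, without KRT7, and still 1 of the 19. These counts cover matched keratins only and leave out KRT86, a hair keratin. An H3K4me3 region between KRT81 and KRT83, chr12:52701889-52702337, lies in an unmatched interval that could be KRT86. It had 21.1, 20.5, 13.8 and 20.3 CPM in DLD1, SA, SPH and METS. KRT20, the differentiation keratin of the intestine, and KRT23, a type I keratin of simple epithelia, had no H3K4me3 or H3K79me3 region in the body or within 5 kb in any line. KRT14, a keratin of the basal layer, had none either, and its partner KRT5 had 2 weak H3K4me3 regions nearby that together held between 5.93 and 8.11 CPM. The 2 regions of KRT7 were no stronger, with sums between 3.87 and 6.71 CPM. KRT7 was counted and KRT5 was not because only the former lay inside the body. Among the simple epithelial keratins, KRT80, KRT8, KRT18 and KRT19 were thus marked and KRT20 and KRT23 were not, in lines labelled as colorectal cancer. Markers outside these blocks, such as CDH1 and VIM, were not analysed here, since no gene annotation of build hg19 was used.

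H3K4me3 at the simple keratins was strong in all 4 lines. The regions compared were of like length, from 355 to 584 bp. The strongest lay at KRT19 (chr17:39683963-39684494), with 91.8, 89.8, 77.7 and 87.5 CPM in DLD1, SA, SPH and METS. The region shared by the ends of KRT8 and KRT18 (chr12:53342990-53343573) had 73.5, 84.7, 81.6 and 66.1 CPM in the same order. At the KRT8 region chr12:53298276-53298700 the levels were 48.5, 63.1, 52.4 and 51.1 CPM. SPH was the lowest line at KRT19 but not at KRT8 or KRT18, where both mesenchymal lines were at or above the epithelial lines. The second KRT19 region, chr17:39683399-39683833, had 49.98, 56.1, 51.0 and 57.2 CPM. KRT80, a type II keratin found in filaments near desmosomes, was almost level at chr12:52585316-52585782, with 41.8, 42.2, 41.2 and 42.3 CPM. KRT7, the type II keratin of ducts and simple glands, had only weak regions, which summed to 3.87, 6.71, 6.15 and 5.61 CPM. Of the 34 regions, 12 reached a mean of 10 CPM, and these lay at KRT80, KRT8 and KRT18, KRT19, the KRT10 locus, SMARCE1 (a subunit of the SWI/SNF remodelling complex, at the left edge of the type I block) and 1 unnamed place between KRT81 and KRT83. SMARCE1, which is no keratin, had 61.7, 67.1, 73.0 and 56.6 CPM at its stronger region, chr17:38803540-38803984.

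**Figure D1:**
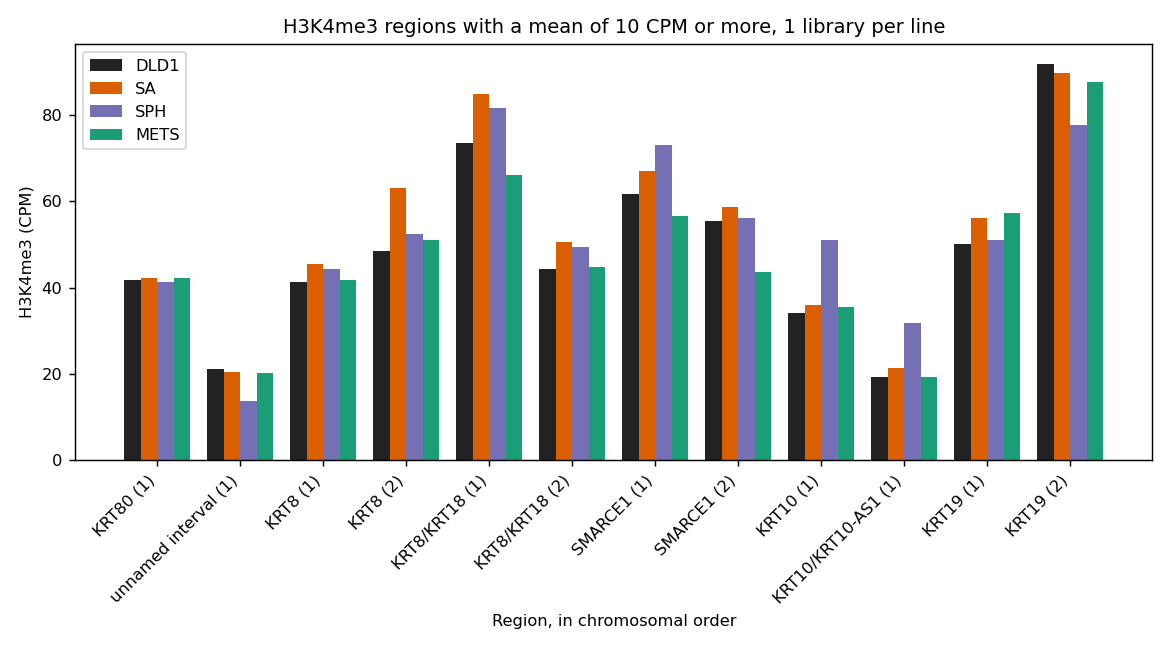
H3K4me3 in CPM (vertical axis) at the 12 keratin block regions with a mean of 10 CPM or more, in chromosomal order, with 1 bar per line and library and no error bars. Bars of the 4 lines are of like height at KRT80, KRT8, KRT18 and KRT19, and SPH is the tallest at the pair of regions of the KRT10 locus.

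Summed over its 9 regions, H3K4me3 at KRT8 and KRT18 came to 221, 265, 252 and 221 CPM in DLD1, SA, SPH and METS. The level was 1.20-fold that of DLD1 in SA (1.12 to 1.28), 1.14-fold in SPH (1.06 to 1.22) and 1.0004-fold in METS (0.932 to 1.07). In 7 of the 9 regions both mesenchymal lines lay above both epithelial lines. Over all keratin regions 15 of 34 did so and 4 lay below, where 20.3% and 20.6% of all H3K4me3 regions lay above and below. None of the 9 regions passed the adjusted test described below, and the smallest adjusted p among them in edgeR's quasi-likelihood test was 0.365 (chr12:53342052-53342472, with 5.21, 8.25, 12.3 and 5.75 CPM). That region passed in edgeR without SA, at an adjusted p of 0.0479, and its other alternatives gave up to 0.999895. KRT19 summed to 142, 146, 129 and 145 CPM, and SPH was 1.10-fold below DLD1 (1.005 to 1.21). With library totals this was the only H3K4me3 sum of a simple keratin locus that was lower in a mesenchymal line than in DLD1. With TMM factors KRT80 in SPH was also below, at 0.987-fold of DLD1.

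The KRT10 locus stood out in SPH. KRT10, the suprabasal partner of KRT1 in epidermis, lies on the minus strand at chr17:38974369-38978847, and its H3K4me3 regions were at the left end, where its plus-strand antisense gene KRT10-AS1 begins, and not at its own start on the right. The region chr17:38974744-38975226 had 34.2, 36.0, 50.9 and 35.5 CPM in DLD1, SA, SPH and METS. The region chr17:38975581-38976023 had 19.2, 21.3, 31.9 and 19.3 CPM. SPH was the highest line at both, and the other 3 lines lay close together. Summed with a weak region further along KRT10-AS1, the locus was 1.52-fold higher in SPH than in DLD1 (1.34 to 1.74), 1.05-fold in SA (0.912 to 1.21) and 1.04-fold in METS (0.902 to 1.20). With 1 SPH library this difference has no replicate check. Both of these regions lie inside the KRT10 body, and a histone mark has no strand. Only position ties them to KRT10-AS1 or to KRT10. H3K79me3 at the locus was low, 8.38, 10.7, 8.27 and 6.68 CPM over 3 regions, and did not follow H3K4me3 in SPH (0.988-fold of DLD1, 0.669 to 1.45).

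The mesenchymal lines (SA and SPH) were set against the epithelial lines (DLD1 and METS) in edgeR's quasi-likelihood test over all regions of each mark, with each line as 1 replicate and Benjamini-Hochberg adjustment. Its p-values measure only how these 4 lines of common origin spread, as the series has no replicate of a line. For H3K4me3, 1 of 33 keratin block regions with counts was called lower in the mesenchymal lines and 0 higher, where the test called 0.292% of all regions lower and 0.00561% higher. At an unadjusted p below 0.05, 1 keratin region was higher and 1 lower, where 4.77% and 6.19% of all regions were. The called region, chr17:39362706-39363176, lies among the keratin-associated protein genes, which encode the matrix proteins of hair, and outside every interval of the tables' gene bodies that was named. It held 11, 2, 1 and 52 counts in DLD1, SA, SPH and METS, which is 1.64, 0.258, 0.140 and 7.12 CPM. The mesenchymal and epithelial lines did not overlap, and most of the counts were in METS. The log2 difference was -4.34 (SE 0.86, adjusted p = 0.0355). The call was lost with TMM factors (edgeR adjusted p = 0.0770), in DESeq2 (0.107), and in edgeR without SPH (0.0586) or without METS (0.594). It held without SA (0.00164) or without DLD1 (1.93e-06).

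Against DLD1 alone, with 0.5 CPM added to each value and no test, 1 of 34 H3K4me3 regions was at least 2-fold higher in SA (0.527% of all regions) and 1 lower (2.1%). SPH also had 1 higher (3.58% of all regions) and 1 lower (3.34%), and METS had 2 higher (3.91%) and 0 lower (1.09%). The region chr17:39362706-39363176 accounted for the lower region in SA and SPH and for 1 of the higher ones in METS. The others were weak: a KRT7 region in SA (5 counts in DLD1 and 21 in SA), the KRT8 region chr12:53342052-53342472 in SPH (35 counts in DLD1 and 88 in SPH) and chr17:39182818-39183253, inside the interval matched to the keratin-associated protein gene KRTAP1-5, in METS (1 count in DLD1 and 14 in METS). The median log2 ratio of the keratin regions was 0.13 in SA, 0.12 in SPH and 0.02 in METS, beside -0.01, 0.01 and 0.00 for all regions.

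H3K79me3 at KRT80 was lower in both mesenchymal lines. Over the 14 regions in its body the summed level was 168, 75.6, 110 and 162 CPM in DLD1, SA, SPH and METS (1266, 550, 679 and 1042 counts). DLD1 was 2.23-fold higher than SA (2.01 to 2.46), 1.53-fold higher than SPH (1.39 to 1.68) and 1.04-fold higher than METS (0.957 to 1.13). The epithelial lines were close to each other, SA was the lowest line in the sum, and SPH lay between. Bulk libraries cannot tell a lower level in every cell from a lower share of cells with the mark. With TMM factors the folds were 2.17 for SA and 1.42 for SPH, and without the region with the most counts they were 2.23 and 1.69, both checks chosen after the values were seen. H3K4me3 at KRT80 did not show this difference (43.4, 45.5, 43.8 and 45.2 CPM over 2 regions), nor did H3K27me3 over its body (0.245, 0.237, 0.202 and 0.186 CPM per kb).

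Along KRT80, H3K79me3 was highest within 3 kb of the right end, where the H3K4me3 region lies. The region chr12:52583848-52584323 had 35.4, 15.5, 16.2 and 27.05 CPM in DLD1, SA, SPH and METS. At chr12:52584773-52585231, nearest but one to that end, the levels were 32.6, 14.8, 29.7 and 38.7 CPM. SA was low at both, while SPH was low only at the first. The region chr12:52576345-52576872, centred 9.18 kb from that end, had 9.31, 1.92, 5.68 and 10.4 CPM, and DLD1 was 4.84-fold higher than SA (2.70 to 9.30). DLD1 was also 2.67-fold higher than SA at chr12:52578483-52578817 (1.72 to 4.23) and 2.28-fold higher at chr12:52583848-52584323 (1.82 to 2.86). At chr12:52581362-52581527 DLD1 was 3.86-fold higher than SPH (1.68 to 10.4), from 33 counts in DLD1 and 7 in SPH. With library totals both mesenchymal lines lay below both epithelial lines at each of the 14 regions, and with TMM factors at 12 of them. Over all keratin block regions 17 of 47 lay below in this way and 3 above, where 20.1% and 8.62% of all H3K79me3 regions did. The 14 regions share 1 gene and the same 4 libraries and are not independent.

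**Figure D2:**
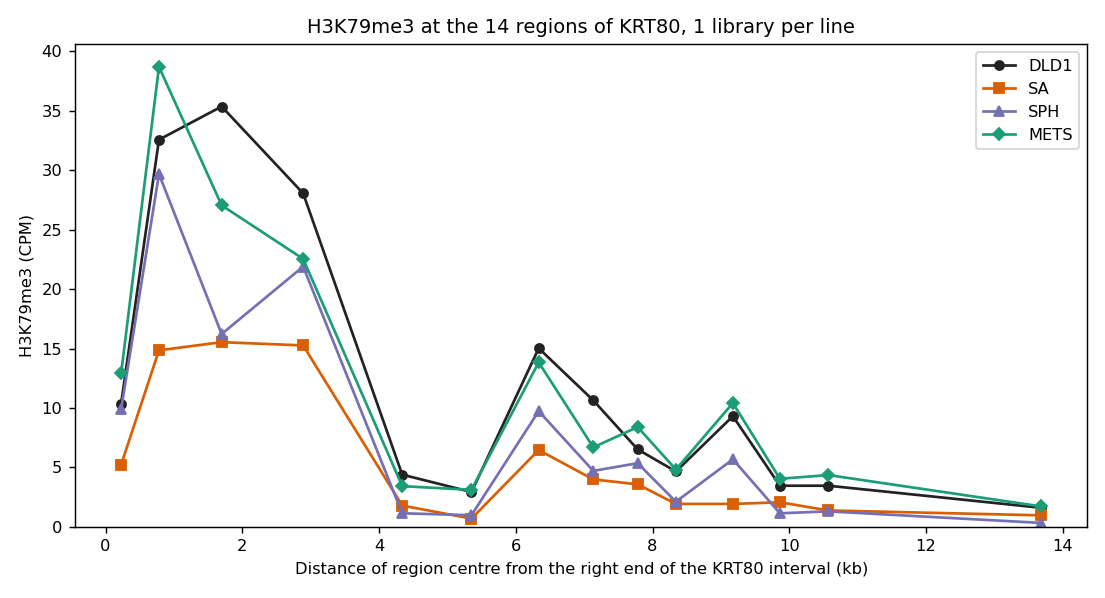
H3K79me3 in CPM (vertical axis) at the 14 regions of KRT80, placed by the distance of each region's centre from the right end of the KRT80 interval in kb (horizontal axis), with 1 line of points per cell line and no error bars. With library totals the points of SA and SPH lie below those of DLD1 and METS at every region. The gap for SPH is small at the 2 regions nearest the end and at chr12:52582677-52583109 (21.9 CPM in SPH and 22.5 in METS).

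No KRT80 region passed the adjusted test. In edgeR's quasi-likelihood test 0 of 47 keratin block regions were called for H3K79me3, and 0 of all 156120 regions tested were (0% in each direction). DESeq2 called 0 as well. At an unadjusted p below 0.05, 9 of the 47 were lower in the mesenchymal lines, all at KRT80, and 0 were higher, against 2.52% and 0.477% of all regions. The smallest unadjusted p, at chr12:52580274-52580589, was 0.00289 with a log2 difference of -1.85 (SE 0.53), and its edgeR adjusted p was 0.999985. Without SPH, 1 region (chr12:52576345-52576872) passed in edgeR at an adjusted p of 0.0469, while its other settings gave up to 0.999995. Against DLD1 alone, 9 of 47 regions were at least 2-fold lower in SA (2.3% of all regions) and 0 higher (1.08%). All 9 belonged to KRT80. In SPH 8 were lower (5.11%), 7 of them at KRT80, and 2 higher (3.03%), while METS had 0 lower (2.06%) and 1 higher (7.14%). The higher ones in SPH were at KRT19 (chr17:39683985-39684458) and at a weak KRT8 region (chr12:53291059-53291531, with 11, 18, 22 and 24 counts), which was also the higher one in METS. The median log2 ratio over the 47 regions was -0.37 in SA, -0.13 in SPH and 0.08 in METS, beside -0.01, -0.10 and 0.07 for all regions.

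H3K79me3 at the other simple keratins followed a different order of lines. KRT8 and KRT18 together, over 19 regions, had 280, 236, 334 and 293 CPM in DLD1, SA, SPH and METS. KRT19, over 6 regions, had 114, 101, 175 and 147 CPM. SA was the lowest and SPH the highest line at both loci, so the mesenchymal lines lay on opposite sides of DLD1. SPH was 1.19-fold of DLD1 at KRT8 and KRT18 (1.12 to 1.27) and 1.54-fold at KRT19 (1.41 to 1.69). SA was 0.844-fold (0.791 to 0.900) and 0.891-fold (0.806 to 0.985). METS was 1.05-fold at KRT8 and KRT18 (0.983 to 1.11), a ratio that turned to 0.988 with TMM factors, and 1.29-fold at KRT19 (1.18 to 1.42). The KRT19 region chr17:39683985-39684458 had the widest range at this gene, with 36.7, 25.4, 76.7 and 62.0 CPM, 2.09-fold higher in SPH than in DLD1 (1.80 to 2.43). The strongest KRT8 region, chr12:53297068-53297504, had 47.7, 40.1, 63.6 and 53.8 CPM. Next to it, chr12:53298264-53298716 had 33.8, 25.6, 58.1 and 48.3 CPM, 1.72-fold higher in SPH than in DLD1 (1.46 to 2.03). The region shared by KRT8 and KRT18, chr12:53343068-53343510, had 39.1, 28.6, 46.4 and 46.5 CPM, so SA was the lowest line at all 3.

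At KRT19 these differences lay where H3K79me3 overlaps H3K4me3, near the right end of the gene. Regions were split, after the values were seen, into those that overlap an H3K4me3 region and the others. At KRT19 the 2 overlapping regions held 87.2, 67.6, 144 and 127 CPM in DLD1, SA, SPH and METS, while the 4 other regions held 26.3, 33.5, 31.5 and 20.1 CPM. The overlapping regions were high in SPH and METS, and the others were highest in SA and lowest in METS. The overlapping regions held 76.8, 66.8, 82.0 and 86.3% of the KRT19 signal of DLD1, SA, SPH and METS. At KRT8 and KRT18 the same share was 59.7, 56.4, 63.4 and 64.6%. Over all H3K79me3 regions of the libraries the share at regions overlapping H3K4me3 was 13.7, 12.2, 16.9 and 16.1%, so it was lower in SA and higher in SPH and METS than in DLD1 over the whole libraries, and its part in the KRT8, KRT18 and KRT19 values was not tested. At KRT80 the 13 regions that overlap no H3K4me3 region held 158, 70.4, 100.2 and 149 CPM, and DLD1 was 2.24-fold higher than SA there (2.02 to 2.49) and 1.58-fold higher than SPH (1.43 to 1.74). The 1 overlapping KRT80 region had 10.4, 5.22, 9.89 and 12.9 CPM, and DLD1 was 1.99-fold higher than SA (1.33 to 3.01) and 1.05-fold higher than SPH (0.740 to 1.49).

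**Figure D3:**
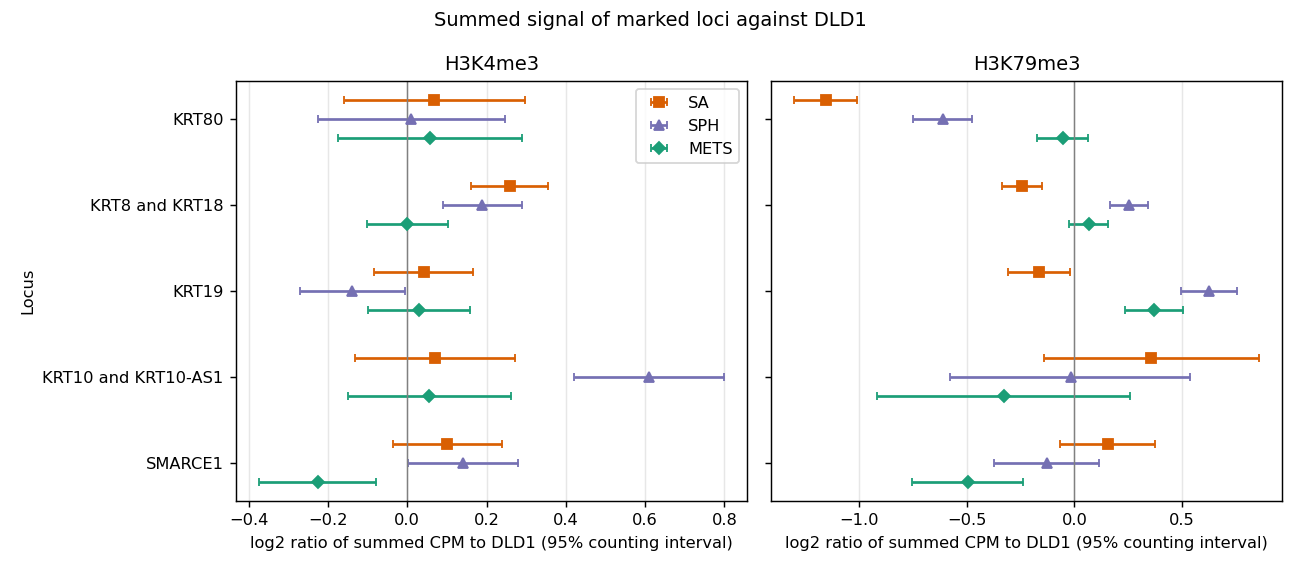
Log2 ratio of summed CPM to DLD1 (horizontal axis) for H3K4me3 (left) and H3K79me3 (right) at 5 loci (vertical axis), with 1 point per derivative line and bars for the exact 95% counting interval. For H3K79me3 the points of SA and SPH lie left of 0 at KRT80, and SPH lies right of 0 at KRT19, and for H3K4me3 the point farthest from 0 is SPH at KRT10 and KRT10-AS1.

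H3K27me3 levels differed by keratin class. Signal was compared as mean CPM per kb of the interval and ranked among all 50000 intervals. The 7 simple epithelial keratins had a median rank at the 31.5th percentile (26.6 to 53.4), and 6 of them lay below the median of all intervals. The 19 basal, stratified and wound keratins had a median at the 82.4th percentile (25.3 to 93.3), with 12 above the 75th, where 12500 of all 50000 lie. For the 8 inner root sheath keratins the median was the 84.9th percentile (59.15 to 94.4), with 7 above the 75th. The 15 hair keratins lay between, at a median of 60.7 (14.35 to 72.0) with 0 above the 75th. The 34 matched keratin-associated protein intervals had a median of 58.3 with 7 above the 75th. The 54 other intervals of the blocks (neighbours, pseudogenes and unmatched intervals) had a median of 70.2, with 21 above the 75th. High ranks were thus not confined to keratins. Genes of a class often lie side by side, so class and position in the block cannot be told apart. The stratified and hair classes overlapped the simple one, with 3 stratified and 5 hair keratins below the median of all intervals. KRT81, a hair keratin, had the lowest rank of the 49 named keratins, 14.35. Over all 137 intervals the median was 65.0.

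Among single genes, KRT25, an inner root sheath keratin, had the highest rank of the 49 named keratins (94.4th percentile), with 2.65, 2.69, 1.90 and 2.95 CPM per kb in DLD1, SA, SPH and METS. KRT76, a keratin of the hard palate, had 2.31, 2.46, 2.09 and 2.39 CPM per kb. KRT75, the keratin of the hair companion layer, had 1.95, 1.88, 1.77 and 1.95. KRT4, a mucosal keratin, was at percentile 90.2 with 1.83, 1.90, 1.84 and 1.82 CPM per kb. KRT25 was the highest of these 4 in DLD1, SA and METS and KRT76 in SPH, and SPH was the lowest line at KRT25, KRT76 and KRT75. Not all stratified keratins were high. KRT5 was at percentile 50.1 (0.335, 0.286, 0.369 and 0.387 CPM per kb) and KRT10 at percentile 25.3 (0.129, 0.165, 0.208 and 0.231).

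The simple keratins with active marks had little H3K27me3. KRT18 ranked at the 26.6th percentile with 15, 14, 10 and 17 counts in DLD1, SA, SPH and METS, KRT8 at the 29.4th with 167, 176, 212 and 235 counts, and KRT19 at the 31.5th with 17, 19, 21 and 16 counts. KRT7 (29.4th), where H3K4me3 was weak, and KRT80 (33.4th) were alike in rank. The KRT8 interval was 52762 bp long, against 4031 bp for KRT18 and 4692 bp for KRT19, so its density is an average over a far longer stretch. KRT20 and KRT23, which had no active mark, ranked higher, at the 41.7th and 53.4th percentiles. KRT20 had 0.228, 0.211, 0.353 and 0.281 CPM per kb in DLD1, SA, SPH and METS, from 33, 37, 67 and 53 counts. KRT23 had 0.382, 0.326, 0.380 and 0.432 CPM per kb. KRT20 was thus without H3K4me3 and H3K79me3 regions and below the cluster's median for H3K27me3.

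**Figure D4:**
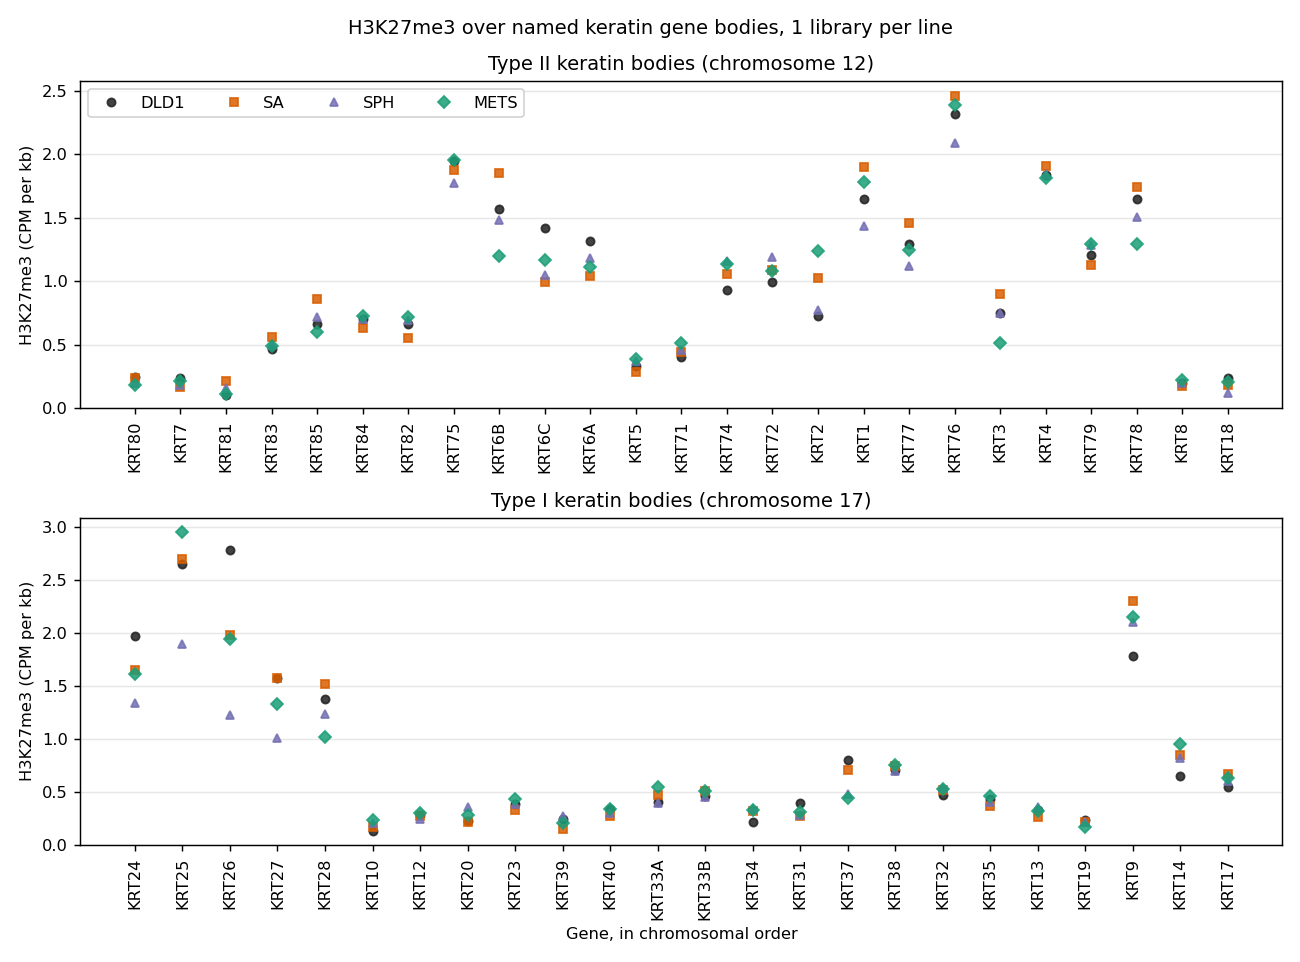
H3K27me3 in CPM per kb (vertical axis) over the named keratin gene bodies in chromosomal order, for the type II cluster (upper panel) and the type I cluster (lower panel), with 1 point per line and library. Values stand high from KRT75 to KRT6A, from KRT1 to KRT78 apart from KRT3, from KRT24 to KRT28 and at KRT9. They are low at KRT80, KRT7, KRT8, KRT18, KRT10, KRT20 and KRT19, and also at KRT12 and the hair keratins KRT81 and KRT39.

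The densest H3K27me3 of the clusters lay in the gap between KRT77 and KRT76, where 6 of 7 short intervals (489 to 3474 bp) were above the 90th percentile of all intervals. The interval chr12:53129050-53129926, matched to the pseudogene KRT125P, had 8.33, 7.85, 5.92 and 5.17 CPM per kb in DLD1, SA, SPH and METS (99.7th percentile). The interval chr12:53124209-53126649, matched to LOC400036, had 5.70, 7.07, 6.18 and 4.87 CPM per kb (99.5th percentile). The next 3 in density were chr12:53145762-53147605 (4.31, 4.91, 6.11 and 3.93 CPM per kb), chr12:53140380-53142092 (4.75, 4.02, 4.75 and 3.57) and chr12:53142560-53143911 (3.70, 4.15, 3.30 and 3.83). The levels of the epithelial and mesenchymal lines overlapped at KRT125P, and at LOC400036 both mesenchymal lines were above both epithelial lines. Over the clusters 18 of 137 intervals had this order and 22 the opposite one, where 11.5% and 25.2% of all intervals did. The unadjusted edgeR p of LOC400036 was 0.117 and did not pass. By counts the largest unnamed intervals were long ones, chr12:52774244-52796191 (283, 344, 398 and 414 counts) and chr12:52643084-52702947 (280, 345, 391 and 317), at percentiles 76.3 and 45.3 of density.

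In the type I cluster, H3K27me3 from KRT222 to KRT28 was lowest in SPH. This stretch, chosen after the values were seen, holds 9 intervals that do not overlap (chr17:38810917-38956211, 50.1 kb of intervals), among them KRT24 and the inner root sheath genes KRT25 to KRT28. Its sum was 98.9, 88.3, 63.7 and 80.5 CPM in DLD1, SA, SPH and METS. DLD1 was 1.55-fold higher than SPH (1.44 to 1.67), or 1.43-fold with TMM factors. With library totals 8 of the 9 intervals were lower in SPH than in DLD1, and the remaining one, of 100 bp, had 0 counts in both. Of all 50000 intervals 27851 were lower in SPH than in DLD1, and of the 137 in the keratin blocks 80 were. DLD1 was 1.23-fold higher than METS (1.14 to 1.32) and 1.12-fold higher than SA (1.04 to 1.20), the last of which was 1.02-fold with TMM factors. KRT26 had 257, 222, 148 and 233 counts in DLD1, SA, SPH and METS, or 2.78, 1.98, 1.22 and 1.94 CPM per kb. DLD1 was 2.27-fold higher than SPH at KRT26 (1.85 to 2.80), 1.40-fold higher than SA (1.17 to 1.68) and 1.43-fold higher than METS (1.20 to 1.72). All 3 derivatives were below DLD1 there. At KRT28, the right end of the stretch, the levels were 1.38, 1.51, 1.24 and 1.02 CPM per kb, and METS, not SPH, was the lowest line.

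With 0.5 CPM added to each value, KRT26 was the 1 interval of the keratin blocks past 2-fold against DLD1. In SPH 1 of 137 intervals was lower (1.39% of all intervals) and 0 higher (0.684%). SA had 0 lower (0.472%) and 0 higher (0.318%), and METS had 0 lower (0.738%) and 0 higher (0.488%). In edgeR's quasi-likelihood test of the mesenchymal against the epithelial lines 0 of 136 keratin intervals were called, where 0.343% of all intervals were called higher and 0.294% lower, and DESeq2 called 0 as well. At an unadjusted p below 0.05, 1 was higher (2.53% of all intervals) and 2 were lower (6.27%). KRT26 was 1 of the lower ones, with a log2 difference of -0.55 (SE 0.22), an unadjusted p of 0.0162 and an edgeR adjusted p of 0.373. Without SA its edgeR adjusted p was 0.00641, and over all its alternatives the adjusted p ran from there to 0.932. The median log2 ratio to DLD1 over the keratin intervals was -0.01 in SA, -0.06 in SPH and -0.07 in METS, beside -0.07, -0.05 and 0.00 for all intervals.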

How the data were processed

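The 12 tables deposited by the authors give whole-number read counts for each region, on build hg19 per the submitters' processing notes. Aligner, caller, counter and input control are not given in the sources used here. The antibody precipitation and libraries used a Diagenode iDeal kit, per the labels. A line in the H3K27me3 table says that it leaves out 7773 entries, and its CPM refer to chromosomes 1 to 19. No other columns were present.

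CPM were computed from the column totals. Fits used edgeR 4.0.16 (quasi-likelihood, library totals, any region with counts) and DESeq2 1.42.0 in R 4.3.3, adjusted over all regions of a mark at 0.05. Only the edgeR fit was run on simulated data, whose spread was preset and not taken from these libraries. Ratios to DLD1 used 0.5 CPM added and a 2-fold threshold, without a test, since there is 1 library per line. Fold intervals are exact (SciPy 1.17.1). PCR copies were not marked.

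H3K27me3 intervals were named by aligning their order and length (within 25%) to RefSeq genes of GRCh38.p14. Of the 49 keratins, 36 matched within 1% and 46 within 10% of length, and the largest difference was 22.7%. No coordinate was converted between builds. Regions of the other marks were assigned to bodies they overlap, or within 5 kb.

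The members, the keratin lists and the tests were chosen with earlier results of these data known. Named with values were, per mark, the 5 strongest members (H3K27me3: also the 5 with most counts), those called by edgeR, at most 3 members each way past 2-fold per derivative among those reaching the median of the mark, and those at simple epithelial keratins. Other genes named, the KRT222 to KRT28 stretch, the locus sums and the split by H3K4me3 overlap were chosen after the values were seen. Alternatives were TMM factors, DESeq2, a filter at the median, 0.1 and 2 CPM added, 1.5-fold and 3-fold thresholds, sums without the strongest member, and leaving out each line.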

Additional observations from a re-analysis of the deposited data

Results flagged for a closer look

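The H3K4me3 region chr17:39362706-39363176, among the keratin-associated protein genes, moved in opposite directions in the derivatives. Its log2 ratio to DLD1, with 0.5 CPM added, was 1.83 in METS, -1.49 in SA and -1.74 in SPH. The counts were 11, 2, 1 and 52 in DLD1, SA, SPH and METS. METS was 4.35-fold above DLD1 (2.24 to 9.25), while DLD1 was 6.34-fold above SA (1.38 to 58.9) and 11.7-fold above SPH (1.70 to 504). The difference between the derivatives was not tested, as each is 1 library.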

How the results depend on the processing

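No paired analysis was possible because the labels give no replicate numbers and each line has 1 library per mark. For H3K4me3, edgeR called 1 keratin region in all between mesenchymal and epithelial lines. This count became 0 with TMM factors, 0 in DESeq2 and 0 with regions below the median left out. For H3K27me3 and H3K79me3 the count was 0 under each of these. Counts from fits that leave out a line are not given here, as 1 group then holds 1 line.

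Counts past the fold threshold against DLD1 moved with the added value and the threshold. The shares of all regions at these other settings are not given here. The counts below thus show only how the setting moves them, not whether the keratin blocks differ from other regions. For H3K4me3, SA had 4 with 0.1 CPM added, 0 with 2 CPM, 8 at 1.5-fold, 0 at 3-fold and 0 among regions reaching the median. SPH had 5, 0, 10, 1 and 0 in that order. METS had 1 with 2 CPM added, 7 at 1.5-fold and 0 among regions reaching the median. For H3K27me3, SA had 1 with TMM factors, 9 with 0.1 CPM added and 7 at 1.5-fold. SPH had 11 with 0.1 CPM, 0 with 2 CPM, 15 at 1.5-fold and 0 at 3-fold, and METS had 15 with 0.1 CPM and 15 at 1.5-fold. For H3K79me3, SA had 5 with 2 CPM, 19 at 1.5-fold and 1 at 3-fold, SPH had 3, 18 and 1, and METS had 3 with 0.1 CPM, 0 with 2 CPM, 11 at 1.5-fold and 0 at 3-fold.

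Of the summed levels, the log2 ratio of SA to DLD1 for type I H3K27me3 turned from -0.0885 to 0.0527 with TMM factors. With the same factors the H3K27me3 ratios moved to 0.22 for type II in SA, 0.12 for type II in SPH and -0.18 for type I in SPH, and the type II H3K79me3 ratios to 0.0927 in SPH and -0.0612 in METS. Without the strongest region the type I H3K4me3 ratio of SPH moved to 0.22. The cause was not tested. Regions with few counts, such as most H3K4me3 regions of the blocks (22 of 34 under a mean of 10 CPM), limit what a single library can show.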

Other observations

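H3K27me3 was also summed over each cluster block, with library totals. Over 41 type II intervals that do not overlap, the sum was 307, 324, 307 and 304 CPM in DLD1, SA, SPH and METS. Over 76 type I intervals it was 225, 212, 183 and 203 CPM. SPH had the lowest type I sum, with a log2 ratio to DLD1 of -0.30 (-0.37 to -0.23, counting error only), which was -0.18 with TMM factors.

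At 3 keratins near the right end of the type I block, picked after the values were seen, the order of lines was another. KRT9, the keratin of palm and sole epidermis, had 173, 270, 267 and 271 counts in DLD1, SA, SPH and METS, and 1.78, 2.30, 2.10 and 2.15 CPM per kb. KRT14, a basal layer keratin, had 0.649, 0.844, 0.823 and 0.956 CPM per kb, and KRT17, a wound keratin, 0.545, 0.666, 0.598 and 0.629. DLD1 was the lowest line at all 3 genes. Nearby keratins did not share this order. In DLD1, SA, SPH and METS, KRT19 had 0.232, 0.214, 0.219 and 0.168 CPM per kb, and KRT13 had 0.325, 0.258, 0.353 and 0.323. Between KRT14 and KRT17, the interval chr17:39766030-39772151 was left unnamed by the length match and could be an unmatched keratin such as KRT16. Singled out after its values were seen, it had 73, 121, 104 and 55 counts, with an edgeR adjusted p of 0.332.

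H3K79me3 summed over the type II block was 448, 312, 444 and 456 CPM in DLD1, SA, SPH and METS, and over the type I block 166, 160, 223 and 184 CPM. The H3K4me3 sums were 321, 369, 352 and 319 CPM for type II and 332, 345, 357 and 326 CPM for type I.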
